A study of Mus musculus with 8 samples.

Results

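The 10 genes described here encode isozymes of the first steps of glycolysis and the membrane carriers at either end of the pathway: Slc2a1, Slc2a3, Hk1, Hk2, Pfkp, Pfkl, Pfkm, Aldoa, Aldoc and Slc16a3. They were taken by name, without a threshold on any value, and all 10 were found among the 20512 named genes of the exon table and the 18655 of the intron table. Neural progenitor cells (NPC), grown from a single clone, were compared with the embryonic stem cells (ESC) they were derived from. That line, F1-21.6, is a hybrid of 129Sv and Cast/EiJ mice, and both groups share that background. The ESC were cultured with serum and leukaemia inhibitory factor over mouse embryonic fibroblast feeders inactivated by mitomycin C. Each cell type had 2 biological replicates with 2 technical libraries each, 8 libraries of ribosomal RNA-depleted total RNA read as 50 bp single ends. Since the NPC came from 1 clone, differences between clones were not sampled, and the intron p-values measure the spread between these cultures. How the technical libraries entered the authors' exon test is not given, so the spread behind the exon p-values is not known.

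Glucose enters cells through carriers of the SLC2 family, of which Slc2a1 (GLUT1) is the widespread form and Slc2a3 (GLUT3) the high-affinity form known from neurons and early embryos. Hexokinase traps glucose as its phosphate, phosphofructokinase commits it to glycolysis, and aldolase splits the resulting sugar. Each of these steps is served by isozymes from separate genes with their own tissue patterns, and the phosphofructokinase subunits (platelet type Pfkp, liver type Pfkl, muscle type Pfkm) form mixed tetramers. Lactate made at the end of the pathway leaves cells through SLC16 carriers, among them Slc16a3 (MCT4), known from strongly glycolytic cells. Pluripotent stem cells are known for high glycolytic flux, and Aldoc is the aldolase of brain, strongest in astrocytes and Purkinje cells.

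The exon values were RPKM (reads scaled to exon length and to sequencing depth), 1 pooled value per cell type, so they carry no replicate error; their test is the one in the authors' deposited table. The intron values, used as a measure of unspliced RNA, also hold the background level described below. They were 1 RPKM-type value per biological replicate and were tested here with limma. The read totals by which the intron values were scaled were inferred here from the values themselves. They were 5792056 and 5186790 in NPC replicates 1 and 2, and 5767704 and 6500767 in ESC replicates 1 and 2. Which reads these totals count is not stated, and the intron read numbers given below rest on the same inference. The cell labels were checked on markers. The 6 ESC markers, led by Pou5f1 and Nanog, summed to 12.6 exon RPKM in NPC and 5484 in ESC, and the 7 neural progenitor markers found, led by Fabp7, summed to 14661 in NPC and 463 in ESC. Astrocyte markers summed to 529 in NPC and 105 in ESC. They also moved both ways, with S100b at 388 in NPC and 0.378 in ESC. Gja1, at 25.9 in NPC and 99.7 in ESC, made up most of the ESC sum. Fibroblast markers, relevant to the feeders, summed to 45.8 in NPC and 42.4 in ESC, and of 10 tested 2 were higher and 5 lower in the authors' deposited table. They moved both ways, with Twist1 at 26.8 in NPC and 6.99 in ESC and Col1a1 at 0.337 in NPC and 4.96 in ESC. Olfactory, vomeronasal and taste-type receptor genes gave a background level: their median was 0.279 exon RPKM in NPC and 0 in ESC, and 0.749, 0.0830, 0.0291 and 0 intron RPKM in NPC replicates 1 and 2 and ESC replicates 1 and 2. NPC replicate 1 therefore stood apart from the other 3 columns in this level. The part of these levels in the results below was not tested, apart from the repeats without that replicate or with the level subtracted.

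Among the 10 genes, 7 were lower and 2 were higher in NPC in the authors' deposited table at an adjusted p of 0.05. Of the 12509 named genes whose mean reached 1 RPKM, 66.2% were called there, 33.9% lower and 32.3% higher, so calls in either direction were common. The lower genes were both glucose carriers, Hk2, Pfkp, Pfkl, Aldoa and Slc16a3. The higher genes were Hk1 and Aldoc, and Pfkm did not pass. The median log2 fold change of the 10 in the authors' deposited table was -1.73, beside -0.07 over all tested genes. For each gene, fewer cells using it and less RNA per cell cannot be told apart in these bulk samples. With a change of at least 2-fold also required, 5 were lower (both glucose carriers, Hk2, Pfkp and Slc16a3) and 2 higher, beside 27.0% and 27.1% of all tested genes.

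**Figure D1:**
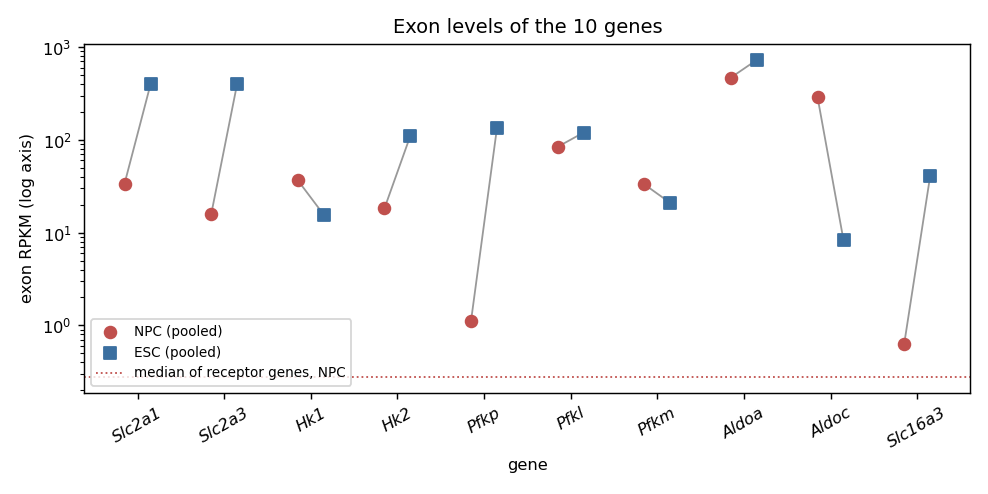
Exon level of each of the 10 genes in NPC (circles) and ESC (squares), in RPKM on a log axis, each point being the authors' pooled value for the cell type and the dotted line the median of receptor genes in NPC. Pfkp and Slc16a3 stood at 1.12 and 0.631 RPKM in NPC, the lowest of the 10, while Aldoc stood at 288 RPKM in NPC and 8.26 RPKM in ESC.

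In introns, 9 of the 10 genes passed the filter of a mean of at least 1, and 5 of these were lower and 1 was higher in NPC by limma at an adjusted p of 0.05. Over all 8811 tested genes 47.3% were called, 34.0% lower and 13.2% higher. The 5 lower genes were Slc2a1, Slc2a3, Hk2, Pfkp and Slc16a3, and the higher gene was Aldoc; Hk1 was the gene below the filter. The NPC and ESC columns did not overlap in 9 of the 10 genes, all but Pfkm, and this held for 70.7% of all named genes. The median log2 change over all tested genes was -0.43, and over the 9 genes -1.57. The added 1 narrows the changes of low genes: with 0.1 in its place the 6 calls held, at -5.00 for Slc2a3, -4.30 for Pfkp, -4.01 for Slc16a3, -1.94 for Hk2 and 5.16 for Aldoc. With the columns set to the same median, 24.6% of tested genes were lower and 24.8% higher, the same 5 of the 10 were lower, and Pfkm was called higher beside Aldoc. Without NPC replicate 1, 6 were lower (Aldoa was added) and 2 higher (Pfkm and Aldoc), beside 43.7% of tested genes lower and 26.6% higher. With ESC replicate 1 or 2 left out the same 5 were lower and Aldoc lost its call, while 12.9% and 12.6% of tested genes were lower.

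**Figure D2:**
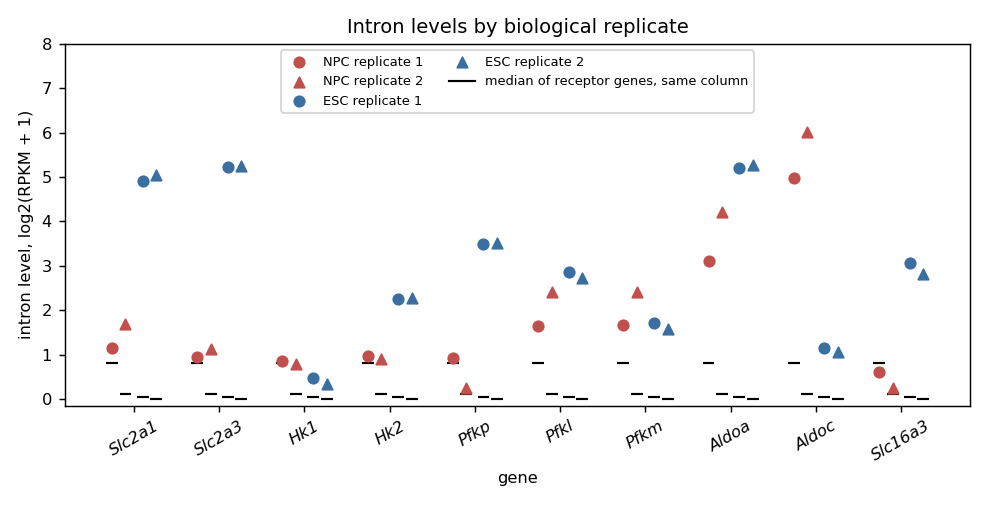
Intron level of each gene by biological replicate on the log2(RPKM + 1) scale, NPC replicates to the left of ESC replicates, with a short black line for the median of receptor genes in the same column. NPC and ESC columns did not overlap in 9 of the 10 genes, and several NPC values lay near the receptor line of NPC replicate 1.

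Several of these genes, among them Slc2a1, Hk2 and Slc16a3, are known targets of hypoxia-inducible factors, so stretches of promoter are printed with the core letters of the sites these factors bind. The letters searched were ACGTG and GCGTG on either strand, in windows from 250 bases before to 50 after each start in RefSeq (GRCm38.p6). Capitals mark a match, which on the other strand reads CACGT or CACGC. Stretches of 60 bases are given 5′ to 3′ on the gene's strand for 4 genes lower in NPC and for the 2 higher ones, Hk1 and Aldoc. Each was picked as the stretch before any listed start that held most matches, nearest to the start where several did. The presence of matches in a printed stretch is therefore no result. Slc2a3, Pfkl and Aldoa, also lower in exons, are not printed.
Slc16a3 (chr11:120949007-120949066, + strand): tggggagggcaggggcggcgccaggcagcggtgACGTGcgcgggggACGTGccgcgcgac
Slc2a1 (chr4:119108684-119108743, + strand): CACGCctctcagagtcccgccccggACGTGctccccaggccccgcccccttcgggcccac
Hk2 (chr6:82774455-82774514, - strand): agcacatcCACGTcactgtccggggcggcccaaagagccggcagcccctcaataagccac
Pfkp (chr13:6648780-6648839, - strand): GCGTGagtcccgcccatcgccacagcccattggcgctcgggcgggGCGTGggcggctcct
Hk1 (chr10:62340422-62340481, - strand): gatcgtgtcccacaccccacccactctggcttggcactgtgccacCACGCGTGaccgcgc
Aldoc (chr11:78323013-78323072, + strand): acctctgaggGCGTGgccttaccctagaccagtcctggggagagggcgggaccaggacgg
The stretch of Hk1 belongs to the downstream of its listed starts. Of the 10 genes, 9 matched an entry, with 16 windows among them, some of which overlap. ACGTG was in 9 of the 16 windows (56.2%) and in 6447 of all 32851 windows (19.6%). GCGTG was in 8 of the 16 (50%) and in 32.4% of all. At least 1 of the 2 was in 13 of the 16 (81.2%) and in 43.8% of all. Windows of the same gene are not independent, and base composition was not matched, so these shares were not tested against each other. Genes that were lower and genes that were higher in NPC both held these letters, which are a description of the window and not of binding.

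Both glucose carriers fell in NPC. Slc2a1, the widespread carrier (mm9 chromosome 4, + strand, start at 118781350), had 33.7 exon RPKM in NPC and 396 in ESC, with a log2 fold change of -3.66 and an adjusted p of 2.48e-52 in the authors' deposited table. Its introns had 1.21 and 2.23 RPKM in the NPC replicates and 29.0 and 31.9 in the ESC replicates, or 1.72 ± 0.719 in NPC and 30.4 ± 2.02 in ESC (SD, n = 2 each). Both NPC columns lay far below both ESC columns, with a log2 change of -3.55 ± 0.52 (SE) and a limma adjusted p of 0.000276. Behind these values were 183 and 301 reads in NPC and 4350 and 5387 in ESC. Of 243 receptor genes with introns, 27 reached its level in NPC replicate 1 and 1 did in NPC replicate 2.

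Slc2a3, the high-affinity carrier (chromosome 6, - strand, start at 122692763), had 15.7 exon RPKM in NPC and 401 in ESC, and the authors' deposited table gives a log2 fold change of -4.82 with an adjusted p of 4.24e-98. Its introns had 0.941 and 1.19 RPKM in NPC and 36.7 and 37.1 in ESC. The groups were far apart, with a log2 change of -4.20 ± 0.50 (SE) and a limma adjusted p of 8.36e-05. Among the 243 receptor genes, 73 reached the Slc2a3 level in NPC replicate 1 and 1 did in NPC replicate 2, so the intron level of NPC replicate 1 was within that background. In ESC the exon levels of both carriers were nearly the same and ranked above 98.3% (Slc2a1) and 98.4% (Slc2a3) of tested genes. In NPC they ranked above 69.2% (Slc2a1) and 48.4% (Slc2a3). Slc2a1 made up 68.2% of their summed exon RPKM in NPC and 49.7% in ESC, while the sum itself was 49.4 in NPC and 797 in ESC.

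The hexokinases moved in opposite directions. Hk2, the form known from muscle, early embryos and tumours (chromosome 6, - strand, start at 82724448), had 18.2 exon RPKM in NPC and 111 in ESC, with a log2 fold change of -2.74 and an adjusted p of 4.35e-31 in the authors' deposited table. Its introns had 0.967 and 0.869 RPKM in NPC and 3.79 and 3.82 in ESC. The replicates of each cell type lay close together and the groups did not overlap, with a log2 change of -1.33 ± 0.20 (SE) and a limma adjusted p of 0.000292. Of the 243 receptor genes, 65 reached its intron level in NPC replicate 1 and 1 did in NPC replicate 2, so the level in NPC replicate 1 was within that background.

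Hk1, the mitochondrially bound form of brain (chromosome 10, - strand, start at 61803169), had 36.7 exon RPKM in NPC and 15.6 in ESC, with a log2 fold change of 1.08 and an adjusted p of 2.17e-05 in the authors' deposited table. Its introns had 0.819 and 0.721 RPKM in NPC and 0.391 and 0.256 in ESC. Both NPC columns were above both ESC columns, but the mean fell short of the filter. The introns of Hk1 span 61732805 to 61842562, so on the - strand they reach upstream of the exon start. The part of this in the Hk1 intron level was not tested. When genes with a mean of at least 0.1 were admitted, its log2 change was 0.42 with a limma adjusted p of 0.196. In NPC replicate 1, 95 of the 243 receptor genes reached its level, against 2 in NPC replicate 2. Hk1 supplied 66.8% of the summed Hk1 and Hk2 exon RPKM in NPC and 12.3% in ESC, and Hk2 33.2% in NPC and 87.7% in ESC. The sum was 54.9 in NPC and 127 in ESC. Hk3 and Hkdc1, also of the hexokinase family, were at 0.150 and 0.178 RPKM in NPC and 0.0654 and 0.158 in ESC, both under the exon filter.

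**Figure D3:**
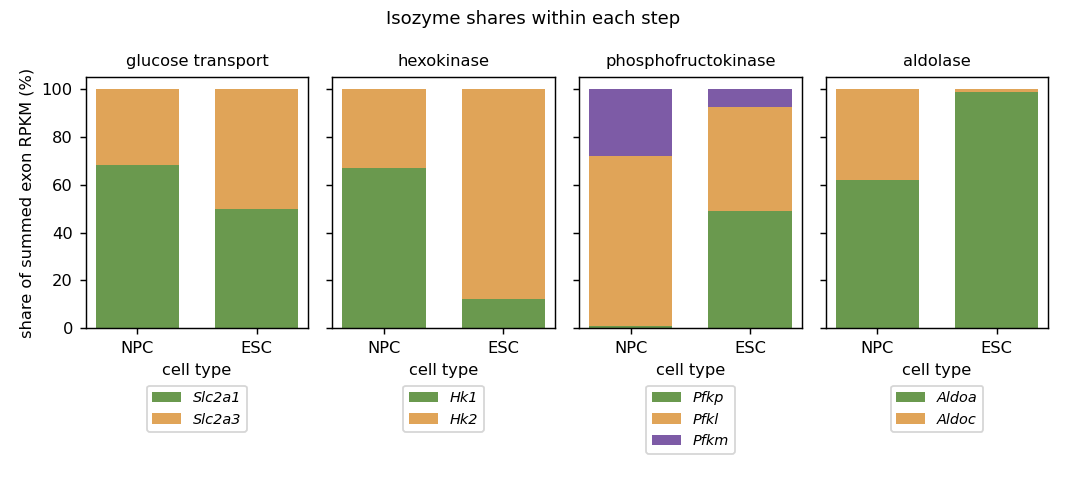
Share of each isozyme in the summed exon RPKM of its step, in percent, with NPC left of ESC in each panel. Hk1 made up 66.8% of the hexokinase sum in NPC and 12.3% in ESC, Pfkp 0.948% of the phosphofructokinase sum in NPC and 49.1% in ESC, and Aldoc 38.0% of the aldolase sum in NPC and 1.12% in ESC.

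Of the 3 phosphofructokinase genes, Pfkp had the greatest fall of all 10 genes in exons. Pfkp, the platelet type (chromosome 13, - strand, start at 6647970), had 1.12 exon RPKM in NPC and 136 in ESC, a log2 fold change of -7.15 with an adjusted p of 3.25e-116 in the authors' deposited table. Its introns had 0.884 and 0.184 RPKM in NPC and 10.3 and 10.4 in ESC. Both NPC columns were low and differed from each other, while the ESC columns were nearly equal; the log2 change was -2.92 ± 0.29 (SE) with a limma adjusted p of 4.04e-05. In introns 86 and 51 of the 243 receptor genes reached its level in NPC replicates 1 and 2, and in exons 14 of 1481 did. Its NPC level lay within that background in introns and above nearly all of it in exons.

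Pfkl, the liver type (chromosome 10, - strand, start at 77472541), had 84.1 exon RPKM in NPC and 119.9 in ESC, and the authors' deposited table gives a log2 fold change of -0.62 with an adjusted p of 0.0228. Its introns had 2.10 and 4.33 RPKM in NPC and 6.27 and 5.58 in ESC. The groups did not overlap, but the NPC replicates were far apart, and the log2 change of -0.77 ± 0.37 (SE) did not pass, with a limma adjusted p of 0.109. With only NPC replicate 1 kept, the log2 change was -1.16, and with only NPC replicate 2 kept, -0.38. Neither fit holds the spread between NPC replicates, so neither tests the change against it.

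Pfkm, the muscle type (chromosome 15, + strand, start at 97923020), had 33.1 exon RPKM in NPC and 20.9 in ESC, a log2 fold change of 0.55 that did not pass, with an adjusted p of 0.0854 in the authors' deposited table. Its introns had 2.19 and 4.29 RPKM in NPC and 2.25 and 1.98 in ESC, and NPC replicate 1 lay between the ESC columns. The log2 change was 0.40 ± 0.27 (SE) with a limma adjusted p of 0.244. It was called with the columns at the same median (0.80, limma adjusted p 0.0118). NPC replicate 2 by itself gave a log2 change of 0.77 and NPC replicate 1 by itself 0.04, in fits that hold no spread between NPC replicates. Muscle markers summed to 1.25 exon RPKM in NPC and 7.68 in ESC, with both of the 2 tested genes lower in the authors' deposited table, and their part in the Pfkm level was not tested.

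In NPC the exon RPKM of the 3 subunits was 71.1% Pfkl, 28.0% Pfkm and 0.948% Pfkp. In ESC it was 43.4% Pfkl, 7.56% Pfkm and 49.1% Pfkp. The summed level was 118 RPKM in NPC and 276 in ESC.

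The aldolases also parted, and Aldoc had the greatest rise of the 10 genes in exons. Aldoc, the brain form (chromosome 11, + strand, start at 78136682), had 288 exon RPKM in NPC and 8.26 in ESC, with a log2 fold change of 4.94 and an adjusted p of 1.21e-82 in the authors' deposited table. Its introns had 30.5 and 64.0 RPKM in NPC and 1.21 and 1.07 in ESC. Both NPC columns lay far above both ESC columns, though they differed from each other by more than the ESC columns did. The log2 change was 4.40 ± 0.58 (SE) with a limma adjusted p of 0.000133. The call was lost without ESC replicate 1 (4.45, limma adjusted p 0.184) and without ESC replicate 2 (4.36, limma adjusted p 0.214), where 1 ESC column is left and is assumed to vary like NPC. The ESC values rest on at least 6 reads in each replicate, a minimum since the values do not fix the intron length.

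Aldoa, the widespread form (chromosome 7, - strand, start at 133942768), had 469 exon RPKM in NPC and 728 in ESC, a log2 fold change of -0.73 with an adjusted p of 0.0130 in the authors' deposited table. Its introns had 7.62 and 17.5 RPKM in NPC and 35.8 and 37.4 in ESC. The groups did not overlap, but the NPC replicates differed strongly, and the log2 change of -1.57 ± 0.78 (SE) did not pass, with a limma adjusted p of 0.117. Set against both ESC columns, NPC replicate 2 by itself gave -1.02 and NPC replicate 1 by itself gave -2.13. Such fits hold no spread between NPC replicates, so they cannot weigh the change against it. The summed exon RPKM of Aldoa and Aldoc was 757 in NPC and 737 in ESC, with Aldoc at 38.0% of it in NPC and 1.12% in ESC. Astrocyte markers, which Aldoc is known to accompany, were higher in NPC for 4 of 6 tested genes and lower for 1. Gfap was among the higher at 67.3 exon RPKM in NPC and 0.412 in ESC, and Gja1 was the lower at 25.9 in NPC and 99.7 in ESC. The part of such cells in the Aldoc level was not tested.

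Slc16a3, the lactate exporter (chromosome 11, + strand, start at 120809798), had 0.631 exon RPKM in NPC and 40.8 in ESC, with a log2 fold change of -6.04 and an adjusted p of 4.45e-69 in the authors' deposited table. Its introns had 0.533 and 0.181 RPKM in NPC and 7.42 and 6.05 in ESC. The groups were far apart, with a log2 change of -2.52 ± 0.23 (SE) and a limma adjusted p of 2.97e-05. Only 23 and 7 reads were behind the NPC values, against 319 and 293 in ESC. In NPC replicates 1 and 2, 167 and 52 of the 243 receptor genes reached its intron level, and 163 of 1481 reached its exon level in NPC. Its NPC level was therefore within the range of that background.

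Isozymes of 1 step were also set against each other within a column, which removes a scaling shared by both genes except for the effect of the added 1. On the log2(RPKM + 1) scale of introns, Hk1 over Hk2 was -0.11 and -0.12 in NPC and -1.78 and -1.94 in ESC, a difference of means of 1.75. Aldoc over Aldoa was 1.87 and 1.81 in NPC and -4.06 and -4.21 in ESC, a difference of 5.98. In both, the replicates of a cell type lay close together. A background level shared by both genes is not removed by a ratio. In NPC replicate 1, 95 and 65 of the 243 receptor genes reached the intron levels of Hk1 and Hk2. The closeness of the NPC ratios of Hk1 over Hk2 is therefore no sign of a steady ratio. These ratios put Hk1 slightly below Hk2 in NPC introns, whereas Hk1 had 66.8% of their summed exon RPKM there. The Hk1 introns reach upstream of the exon start of that gene, and the part of this in the ratio was not tested. With 0.1 added in place of 1, the means for Hk1 over Hk2 were -0.23 in NPC and -3.23 in ESC, further apart than with 1, and the difference for Aldoc over Aldoa was 6.82.

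Pfkp over Pfkl was -0.72 and -2.17 in NPC and 0.63 and 0.79 in ESC, a difference of -2.16. Leaving out NPC replicate 1 gave -2.88, leaving out NPC replicate 2 gave -1.43, and adding 0.1 in place of 1 gave -3.36. Pfkm over Pfkl was 0.04 and -0.01 in NPC and -1.16 and -1.14 in ESC, a difference of 1.17, so this ratio was steady in NPC although each gene alone varied there. Slc2a1 over Slc2a3 was 0.19 and 0.56 in NPC and -0.33 and -0.21 in ESC, a difference of 0.65. All 5 ratios had NPC columns that did not overlap with ESC columns. Single genes did so for 70.7% of all named genes, and the share over gene pairs at large was not counted. Each gave a two-sided exact permutation p of 0.333, the smallest that 2 against 2 allows, and 0.333 after adjustment over the 5. No ratio can therefore pass a threshold of 0.05 in this design.

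The other enzymes of core glycolysis were mixed, with 5 of 13 tested higher and 7 lower in NPC in the authors' deposited table (median log2 fold change -0.86). Among the higher ones were Gpi1 (glucose phosphate isomerase) at 119 RPKM in NPC and 48.8 in ESC, Tpi1 (triose phosphate isomerase) at 399 in NPC and 194 in ESC, and Ldhb (the lactate dehydrogenase subunit of heart and brain) at 177 in NPC and 34.4 in ESC. Ldha, the muscle subunit, was lower, at 288 RPKM in NPC and 395 in ESC. Pkm (pyruvate kinase) was lower, at 417 RPKM in NPC and 674 in ESC. Eno2, the neuronal enolase, was higher at 10.3 RPKM in NPC and 4.67 in ESC, whereas Eno1, the widespread form, was lower at 6.62 in NPC and 17.7 in ESC.

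Gapdh, Pgk1, Pgam1 and Eno1 have many near-identical copies in the genome, and their exon levels are uncertain. Gapdh stood at 1.37 exon RPKM in NPC and 6.04 in ESC, below its own intron level of 3.66 and 13.5 in NPC and 38.9 and 42.2 in ESC. In introns, Pgk1 had 1.79 and 2.57 RPKM in NPC and 25.1 and 24.6 in ESC, with a log2 change of -3.04 and a limma adjusted p of 0.000661. Of 12 core enzymes tested in introns by limma, 4 were lower and 1, Ldhb, was higher.

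The genes that regulate phosphofructokinase through fructose 2,6-bisphosphate split evenly, with 2 of 4 higher and 2 lower in NPC in the authors' deposited table. Pfkfb3, whose kinase activity raises that activator, had 18.1 RPKM in NPC and 5.63 in ESC, and Pfkfb4 had 4.39 in NPC and 1.26 in ESC. Pfkfb1 was lower at 2.37 RPKM in NPC and 14.8 in ESC, as was Tigar, a phosphatase that lowers the activator, at 4.51 in NPC and 18.5 in ESC.

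Of 8 other listed carriers of the Slc2a and Slc5a families that were tested, 4 were higher and 1 lower in NPC in the authors' deposited table. They were listed by family, whatever sugar or other substrate each carries. The higher ones, among them Slc2a12 (7.95 RPKM in NPC and 0.0598 in ESC) and Slc2a10 (4.77 in NPC and 0.168 in ESC), stayed below 10 RPKM in NPC. Slc5a1, a sodium-coupled glucose carrier, was lower at 0.613 RPKM in NPC and 11.8 in ESC. Of the other lactate carriers and their chaperones, Slc16a1 (MCT1) was lower at 64.0 RPKM in NPC and 105 in ESC, and Slc16a7 (MCT2) was higher at 3.79 in NPC and 0.219 in ESC. Bsg (basigin), which carries MCT1 and MCT4 to the membrane, was at 569 RPKM in NPC and 399 in ESC and did not pass, with an adjusted p of 0.192 in the authors' deposited table. Emb (embigin), another chaperone, was lower at 36.3 RPKM in NPC and 145 in ESC.

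Glycogen metabolism moved mostly one way. Of 9 tested genes, 8 were higher in NPC and none was lower in the authors' deposited table, with a median log2 fold change of 1.85. Pygb, the brain glycogen phosphorylase, had 157 RPKM in NPC and 8.50 in ESC, Pygm, the muscle form, 28.3 in NPC and 1.44 in ESC, and Gyg (glycogenin, which starts a glycogen particle) 29.1 in NPC and 5.28 in ESC. All 5 of these genes tested in introns were higher by limma.

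**Figure D4:**
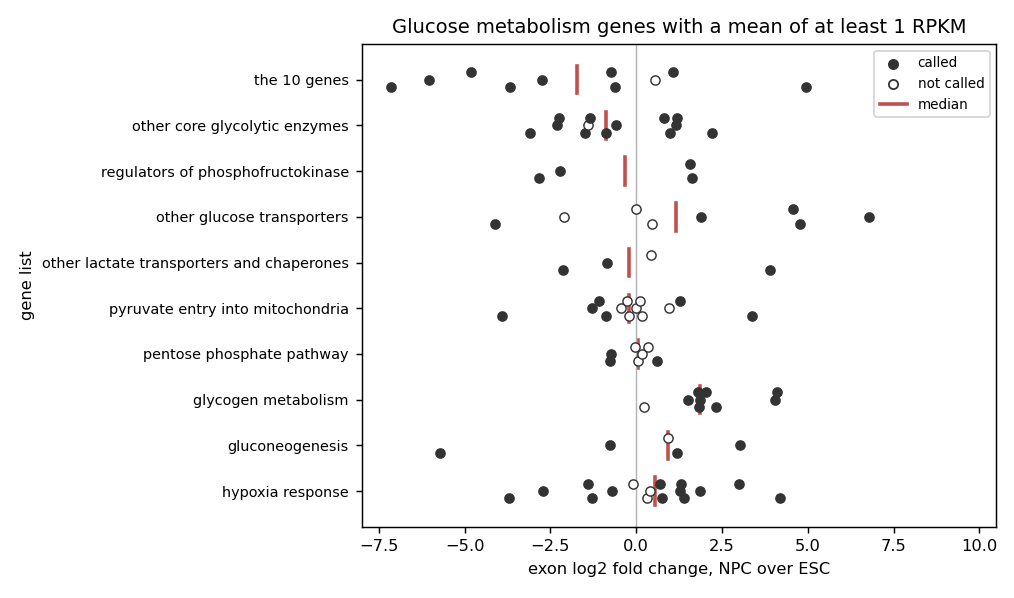
Log2 fold change of exons, NPC over ESC, in the authors' deposited table for the 10 genes and for related lists, one point per gene whose mean reached 1 RPKM, filled where called, with a red bar at each list's median. The 10 genes had a median of -1.73 and glycogen metabolism 1.85, and the 10 genes lay on both sides of 0.

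Genes starting within 250 kb of the 10 genes numbered 138, of which 86 were tested, 24 higher and 35 lower in NPC in the authors' deposited table. Over all tested genes 32.3% were higher and 33.9% lower, so called neighbours were about as common as called genes at large. The places described next were chosen after the values were seen. Slc2a3 starts 35.2 kb from Nanog, a core pluripotency factor, in a stretch that also holds Dppa3 and Gdf3, both genes of early embryonic and germ cells. In the authors' deposited table, Nanog, Dppa3 and Gdf3 had log2 fold changes of -7.80, -9.33 and -7.34, beside -4.82 for Slc2a3. On the same side Apobec1 had 1.25 there, and on the other side Foxj2 had 1.29 and Necap1 -0.69, so genes on either side of zero lay in the same stretch. Around Pfkl, Aire, Dnmt3l, Icosl and Pwp2 had log2 fold changes of -4.51, -8.73, -3.30 and -2.95 in the authors' deposited table, beside -0.62 for Pfkl itself, with 3 tested neighbours higher. Pfkp had 1 tested neighbour, Pitrm1, with a log2 fold change of -0.95 in the authors' deposited table.

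**Figure D5:**
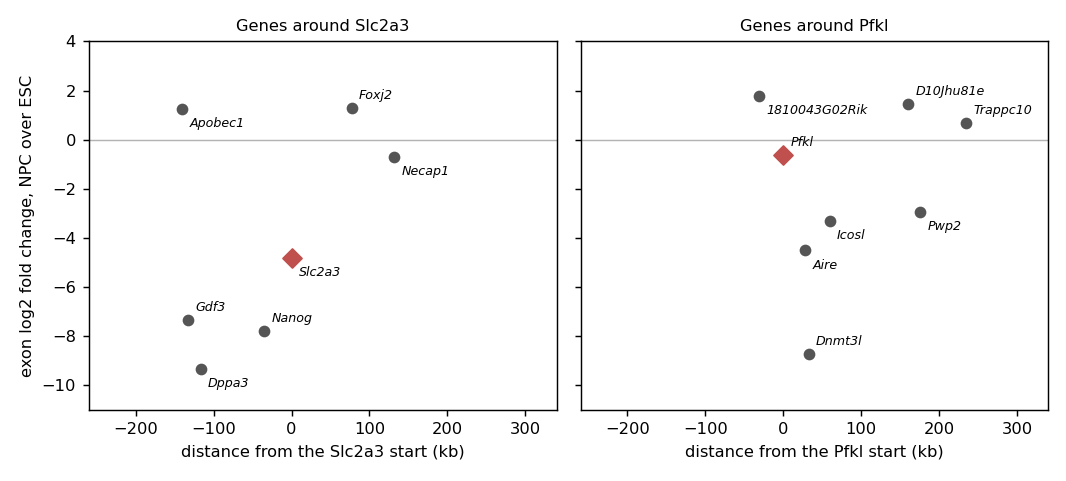
Log2 fold change of exons, NPC over ESC, in the authors' deposited table for tested genes by distance of their start from the start of Slc2a3 (left) and Pfkl (right), in kb, with the diamond for the named gene. Slc2a3 at -4.82 lay 35.2 kb from Nanog at -7.80, and Pfkl at -0.62 lay 32.5 kb from Dnmt3l at -8.73.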

How the data were processed

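Total RNA was depleted of ribosomal RNA and made into ScriptSeq v2 libraries, per the labels' protocols. The exon table holds pooled RPKM per cell type with a log2 fold change and an adjusted p-value, deposited by the authors; DESeq2 1.10.0 and mm9 are named per the submitters' processing notes, while the sources used here do not give the aligner or how technical libraries entered that test. The intron table was deposited by the authors with 1 value per biological replicate and no stated unit. It was taken as RPKM from the values: all 18447 genes with reads gave whole reads within 0.001, used for depth only, with the fewest reads taken for the 1510 genes where several lengths solved. No column of sample values was left unused (0 columns).

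Exon calls used the deposited adjusted p-value at 0.05 over named genes whose mean reached 1 RPKM. Introns were fitted with limma 3.58.1 (R 4.3.3) with trend on log2(RPKM + 1), genes with a mean of at least 1, Benjamini-Hochberg adjusted; such a fold change understates that of low genes. The fit was checked on simulated data. Isozyme ratios were tested by exact permutation (scipy 1.17.1). All 10 members, fixed pathway genes and up to 3 called genes per direction of each list with the largest fold changes could be named, and the neighbours were added after values were seen. The members and lists were chosen with earlier results of these data known. Alternatives covered pseudocounts, filters, scalings, receptor background, trend, block and left-out replicates.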

Additional observations from a re-analysis of the deposited data

How the results depend on the processing

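No direction was reversed in the alternatives run on exons, or on introns for the 9 members that passed the main filter. The exon alternatives reuse the same pooled values and could hardly reverse a sign. Leaving out a column cannot reverse a member whose NPC and ESC columns do not overlap. Hk1, below that filter, is not in the intron counts that follow, and its intron change with the receptor level subtracted was not fitted. Of the intron fold changes of single members, 107 kept their side of the threshold, 8 gained a call and 2, both Aldoc without 1 ESC replicate, lost it. The 20 exon values and 30 isozyme ratio values, which have no test or cannot pass one, kept their sign. The count of members higher in introns was 1, and was 2 with the columns at the same median and 2 with quantile normalization, where Aldoa (-0.41, limma adjusted p 0.0143) also became a sixth lower gene, as it did without the trend (limma adjusted p 0.0366). Leaving out 1 replicate gave 0 to 2 higher and 5 to 7 lower members. With the replicate block the counts stayed at 1 higher and 5 lower, and 1145 genes in all were higher and 2632 lower; same-numbered deviations correlated at 0.02, so the numbers were not taken to pair samples. With quantile normalization Slc2a1 was -2.93, Slc2a3 -3.59 and Aldoc 5.11.

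Over all genes, 1167 introns were higher and 2998 lower. The count of higher genes was 2185 with the columns at the same median, 2733 with quantile normalization, 2083 with a mean of at least 0.1, 226 with no filter, 753 without the trend and 418 with the receptor level subtracted. Without ESC replicate 1 it was 546 (1140 lower), without ESC replicate 2 it was 488 (1106 lower), and without NPC replicate 1 it was 2344. Without NPC replicate 2, 5295 were lower, and with no filter 940. With Slc2a4 added to the sum, though not the other carriers, the share of Slc2a3 was 30.7% in NPC. With all measured hexokinases summed, that of Hk2 was 32.8% in NPC and 87.3% in ESC. Few reads limit the intron levels of Aldoc in ESC (at least 6 in each replicate) and of Slc16a3 in NPC (23 and 7).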

Other observations

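Genes of the response to low oxygen did not move as one list in exons. Of 16 tested, 8 were higher and 5 lower in NPC in the authors' deposited table, with a median log2 fold change of 0.54. The 16 include Hif1a (higher), Epas1 (lower) and Arnt (not called), which encode subunits of the factors and not responding genes. Adm (adrenomedullin) had 52.4 RPKM in NPC and 2.48 in ESC, and Vegfa, an angiogenic growth factor, had 126 in NPC and 14.1 in ESC. Hif1a, a subunit of the hypoxia-inducible factor, was higher at 267 RPKM in NPC and 151 in ESC. Ankrd37 was lower at 4.50 RPKM in NPC and 54.8 in ESC, and P4ha2, a collagen prolyl hydroxylase, at 1.16 in NPC and 6.84 in ESC.

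Of 13 tested genes of pyruvate entry into mitochondria, 2 were higher and 4 lower in NPC in the authors' deposited table. Among the kinases that switch off pyruvate dehydrogenase, Pdk2 had 19.5 RPKM in NPC and 1.71 in ESC, Pdk4 had 0.372 in NPC and 6.77 in ESC, and Pdk1 had 51.2 in NPC and 42.5 in ESC with an adjusted p of 0.696 in the authors' deposited table. The fructose bisphosphatases, which reverse the phosphofructokinase step, differed too: Fbp1, the liver form, had 7.45 RPKM in NPC and 0.745 in ESC, and Fbp2, the muscle form, had 0.747 in NPC and 32.0 in ESC. Of 7 tested pentose phosphate genes, 1 was higher (G6pdx, the entry enzyme, at 82.7 RPKM in NPC and 50.6 in ESC) and 2 were lower. Neuron markers were split, with 2 of 4 tested higher and 2 lower.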
